A study of Mus musculus with 14 samples.

Results

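The genes described here are the lysosomal proteases and the subunits of the vacuolar proton pump, with a few further lysosomal proteins, in cultured mouse CD4 T cells. The list has 38 genes: 12 proteases, 8 subunits of the membrane sector V0 of the pump, 8 subunits of its peripheral sector V1, 2 accessory pump proteins, 4 membrane glycoproteins and 4 proteins of lipid handling. The genes were named by their lysosomal roles and proposed with earlier acetate results of these arrays known, so counts over the list are a description and no independent support. Within a gene, the probe set was selected on the highest mean log2 signal over all 14 arrays. Of the 38 genes, 36 had a probe set annotated to that gene alone, against 18193 such genes on the array. Atp6v0c and Cd63 had none and were not analysed here. Genes below the 40th percentile of mean level were filtered out, and 34 of the 36 remained among 10916 genes tested. Ctsh and Ctsk fell under the filter, which lay at a mean signal of 9.11, with mean signals of 7.23 and 3.17. The tested genes nearest above it were Atp6v0a1 at 12.3 and Ctsf at 26.2.

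CD4 T cells from mouse spleen and from peripheral and mesenteric lymph nodes were activated under conditions that polarise to Th17, Treg or Th1 cells, some cultures with 10 mM acetate, a short-chain fatty acid that gut bacteria release. There were 3 Th17 acetate and 3 Th17 control arrays, 2 Treg acetate and 2 Treg control arrays, and 2 Th1 acetate and 2 Th1 control arrays. All cultures received human IL-2. The Th17 cultures received TGF-beta, IL-6, IL-1b, IL-23, IL-21 and TNF with antibodies to IL-4 and IFN-gamma, the Treg cultures TGF-beta, and the Th1 cultures IL-12 with an antibody to IL-4. The labels call the treated samples C2. Treatment protocols of the Treg and Th1 samples among these name acetone, but sodium acetate is what the design text gives throughout. Culture lasted 5 days by the protocols but 6 to 7 days by the design text. Neither strain, nor age, nor a separate animal or culture behind each array is stated. The p-values therefore measure the spread between these samples alone, part of which may be technical, and with so few arrays the precision is limited.

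Lysosomes break down proteins and lipids in an acidic lumen. The vacuolar proton pump (V-ATPase) makes that acid: its V1 sector hydrolyses ATP in the cytosol and drives proton transport through the membrane-bound V0 sector. Cathepsins and legumain are made as inactive precursors, mature in the acid compartment, and cleave endocytosed protein, including antigen and the invariant chain of MHC class II. Many genes of this system carry in their promoters an E-box-like element with the core CACGTG, which the transcription factor TFEB and its relatives bind.

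The promoters below are shown because they carry this core, 5 of genes that rose with acetate in at least 1 subset and that of Lamp1, which did not rise and has the most copies. Each runs from 250 bases before to 10 bases after the transcript start, in RefSeq's sequence of build GRCm38.p6. Capitals mark CACGTG, with the base beside it that completes TCACGTG on either strand.
Lgmn, chr12:102439083-102439342, minus strand: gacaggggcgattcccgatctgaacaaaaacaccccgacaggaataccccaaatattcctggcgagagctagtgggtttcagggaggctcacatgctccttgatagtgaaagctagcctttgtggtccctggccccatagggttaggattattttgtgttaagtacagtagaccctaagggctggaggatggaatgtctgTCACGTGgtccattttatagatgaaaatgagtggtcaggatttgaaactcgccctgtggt
Ctsd, chr7:142387818-142388077, minus strand: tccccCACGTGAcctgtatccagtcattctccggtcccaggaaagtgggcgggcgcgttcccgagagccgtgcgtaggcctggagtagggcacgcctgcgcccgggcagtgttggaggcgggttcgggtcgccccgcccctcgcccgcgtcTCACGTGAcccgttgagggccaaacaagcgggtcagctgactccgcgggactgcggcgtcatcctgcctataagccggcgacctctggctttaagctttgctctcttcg
Atp6v0b, chr4:117887320-117887579, minus strand: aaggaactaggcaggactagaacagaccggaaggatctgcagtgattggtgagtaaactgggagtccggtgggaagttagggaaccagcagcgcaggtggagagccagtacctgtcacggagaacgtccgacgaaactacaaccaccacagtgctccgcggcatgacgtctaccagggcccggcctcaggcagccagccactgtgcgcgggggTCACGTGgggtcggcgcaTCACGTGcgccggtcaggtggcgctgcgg
Atp6v0d1, chr8:105566055-105566314, minus strand: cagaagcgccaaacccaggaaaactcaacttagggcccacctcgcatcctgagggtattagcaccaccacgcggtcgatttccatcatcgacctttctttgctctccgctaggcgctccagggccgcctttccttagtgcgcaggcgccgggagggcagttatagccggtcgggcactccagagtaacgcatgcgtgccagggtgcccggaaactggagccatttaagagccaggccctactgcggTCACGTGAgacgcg
Atp6v1a, chr16:44139250-44139509, minus strand: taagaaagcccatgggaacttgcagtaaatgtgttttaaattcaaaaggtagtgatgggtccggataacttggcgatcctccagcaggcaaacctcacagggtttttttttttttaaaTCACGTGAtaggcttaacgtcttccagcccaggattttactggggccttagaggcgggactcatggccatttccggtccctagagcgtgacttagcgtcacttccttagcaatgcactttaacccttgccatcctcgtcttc
Lamp1, chr8:13158911-13159170, plus strand: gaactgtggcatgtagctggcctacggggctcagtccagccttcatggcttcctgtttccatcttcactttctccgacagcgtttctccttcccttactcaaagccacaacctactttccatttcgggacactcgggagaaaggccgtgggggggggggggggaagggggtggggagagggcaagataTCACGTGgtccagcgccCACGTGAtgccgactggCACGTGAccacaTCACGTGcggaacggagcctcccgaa
The Lgmn sequence belongs to the more downstream of its 2 starts in the table, and the other holds no match. In these windows the core begins 49 bases before the start in Lgmn, 245 and 98 bases before it in Ctsd, and 36 and 18 bases before it in Atp6v0b. It begins 3 bases before the start in Atp6v0d1 and 131 bases before it in Atp6v1a, against 61, 45, 28 and 15 bases in Lamp1.

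Searched over 300 bases per promoter on both strands, from 250 before to 50 after the start, CACGTG was present in at least 1 promoter of 10 of the 28 listed genes that the table holds (35.7%), against 2187 of all 27025 genes in it (8.09%). TCACGTG, which contains CACGTG, was present for 8 of the 28 genes (28.6%) and 4.29% of all genes. TCATGTG, a related element that does not overlap CACGTG, was found for 3 of the 28 (10.7%) and 4.31% of all genes. Among the 12 genes that rose with acetate in a subset, 9 had a promoter in the table and 6 of these (66.7%) held CACGTG: Lgmn, Ctsd, Atp6v0b, Atp6v0d1, Atp6v1a and Ctsl. In Ctsl it begins 236 bases before the start. Atp6v0d2, Ctsb and Atp6v1c1 also rose but had no promoter in the table, so they were not searched. Of the other 19 listed genes with a promoter, 4 (21.1%) held it: Ctsa, Ctsf, Atp6v0e and Lamp1. TCATGTG was split the other way, in 0 of the 9 genes and in 3 of the 19 (15.8%): Ctsa, Ctss and Atp6v0c. The 19 include Atp6v0c and Cd63, which had no probe set, and Ctsk, which was under the filter. These were not tested, so both splits set genes that rose against others that were partly untested. A match is a run of letters only, and binding of any factor was not measured.

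Levels are given as normalised signal, the array intensity after quantile normalisation, and differences as log2 differences ± SE on the log2(signal + 3) scale, acetate minus control. Each adjusted p-value comes from limma, with the Benjamini-Hochberg method applied to the whole set of tested genes, and a gene is said to rise or fall where it was under 0.05. Signals of different genes come from different probes and are not compared with each other. Groups are said to be apart where their arrays do not overlap, which was common among the 10916 genes. For Treg cultures, all acetate arrays lay above all controls for 3834 genes and below them for 3235. The same counts were 2382 and 2104 for Th17 cultures, and 2414 and 2292 for Th1 cultures. Being apart is therefore only a description of the arrays and not a call. In these bulk samples, fewer cells of a type and less RNA per cell cannot be told apart.

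**Figure D1:**
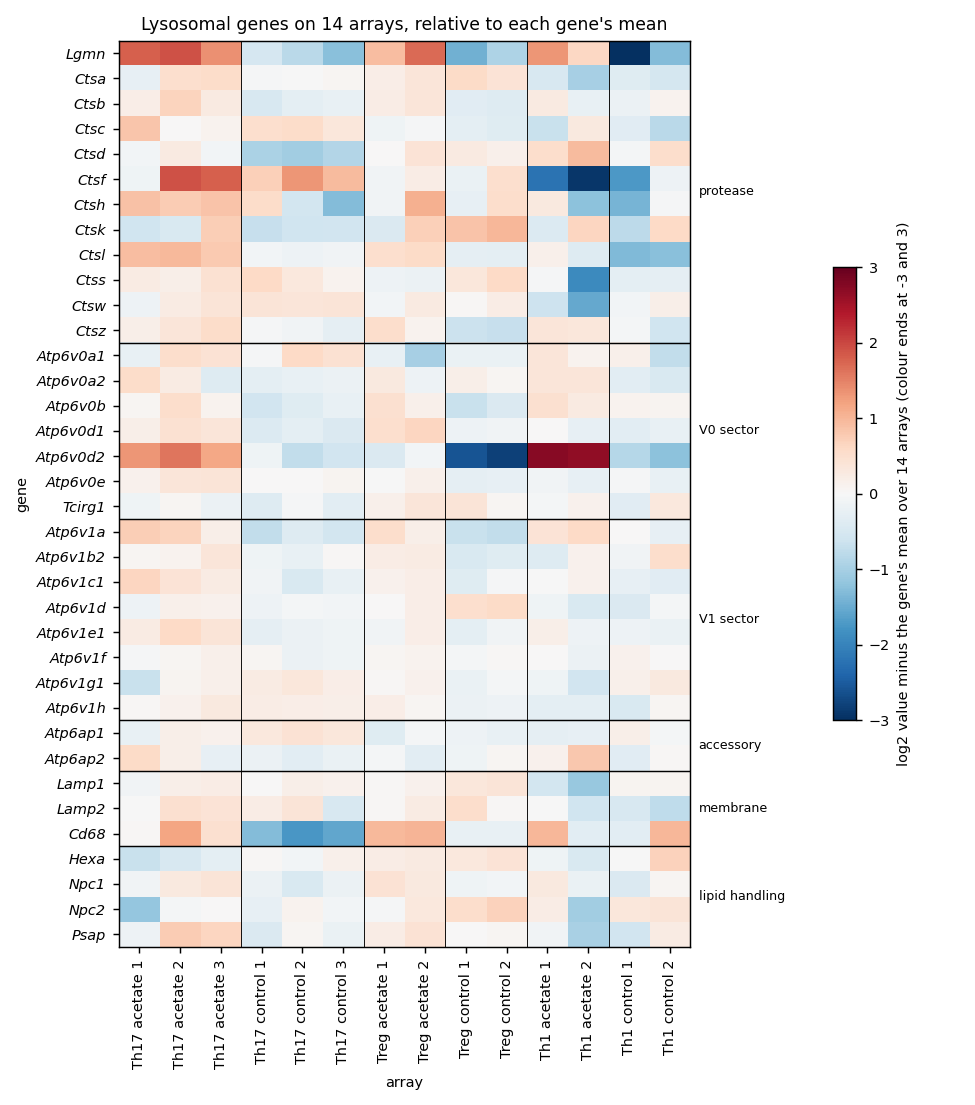
Log2 value of each of the 36 genes on each of the 14 arrays, minus that gene's mean over the arrays, with genes in rows by role and arrays in columns by group. Red is above and blue below the gene's mean, and the colour ends at -3 and 3; Lgmn, Atp6v0d2 and Cd68 have the widest contrasts between acetate and control columns, while most V1 rows stay pale.

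Acetate was followed by higher signals of a subset of these genes in all 3 kinds of culture, most of them in Th17 and Treg cultures. In Th17 cultures 11 of the 34 genes tested rose (background 11.7% of all genes tested) and 0 fell (background 8.66%); at an unadjusted p under 0.05 the limma counts were 14 higher and 2 lower. The median difference was 0.27 over the 34 genes and 0.01 over all genes. The genes that rose were 4 of 10 proteases (Lgmn, Ctsb, Ctsd and Ctsl), 3 of 7 V0 subunits (Atp6v0b, Atp6v0d1 and Atp6v0d2), 3 of 8 V1 subunits (Atp6v1a, Atp6v1c1 and Atp6v1e1) and the membrane glycoprotein Cd68. On the signals as deposited, where the median of all genes lay at -0.29, 4 rose in Th17 cultures (Lgmn, Atp6v0d2, Atp6v1a and Cd68) and 1, Hexa, fell.

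In Treg cultures 8 of 34 rose (background 7.04%) and 0 fell (background 5.44%), with 11 higher and 1 lower by limma at an unadjusted p under 0.05. They were Lgmn, Ctsb, Ctsl, Ctsz, Atp6v0b, Atp6v0d1, Atp6v0d2 and Atp6v1a. The median difference was 0.23, against 0.03 over all genes. This count depends on single arrays: it was 2 without Treg acetate array 1, 4 without Treg acetate array 2, 2 without Treg control array 1 and 3 without Treg control array 2. On the signals as deposited 2 rose, Lgmn and Atp6v0d2.

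In Th1 cultures 3 of 34 rose, Lgmn, Ctsl and Atp6v0d2 (background 2.07%), and 2 fell, Ctsw and Lamp1 (background 1.91%). The median difference was 0.05, against 0.03 over all genes. Without Th1 acetate array 2 the count of 5 was 3 higher and 0 lower, and likewise without Th1 control array 2; on the signals as deposited it was also 3 higher and 0 lower. At an unadjusted p under 0.05, limma counted 8 of the 34 genes higher and 5 lower in Th1 acetate arrays, beside 2397 of all 10916 genes in either direction.

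Across the subsets, Lgmn, Ctsl and Atp6v0d2 rose in all 3, a further 4 genes (Ctsb, Atp6v0b, Atp6v0d1 and Atp6v1a) rose in both Th17 and Treg cultures, and 20 of the 34 were called in no subset. The 3 acetate comparisons share no arrays, though they share one estimate of the spread. For the mean of the 3 acetate differences, which reuses the same arrays, 13 genes rose (background 17.6%) and 3 fell, Ctsw, Lamp1 and Hexa (background 14.1%). In that mean the rise of Ctsz (0.72 ± 0.11, adjusted p = 0.000383) and of Npc1 (0.39 ± 0.13, adjusted p = 0.0400) was called; Npc1 missed the threshold under 15 of the alternative settings tried. A limma F test of whether the 3 acetate differences differ from each other called 1 member, Atp6v0d2 (background 0.797%), and 8 members had an unadjusted p under 0.05.

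**Figure D2:**
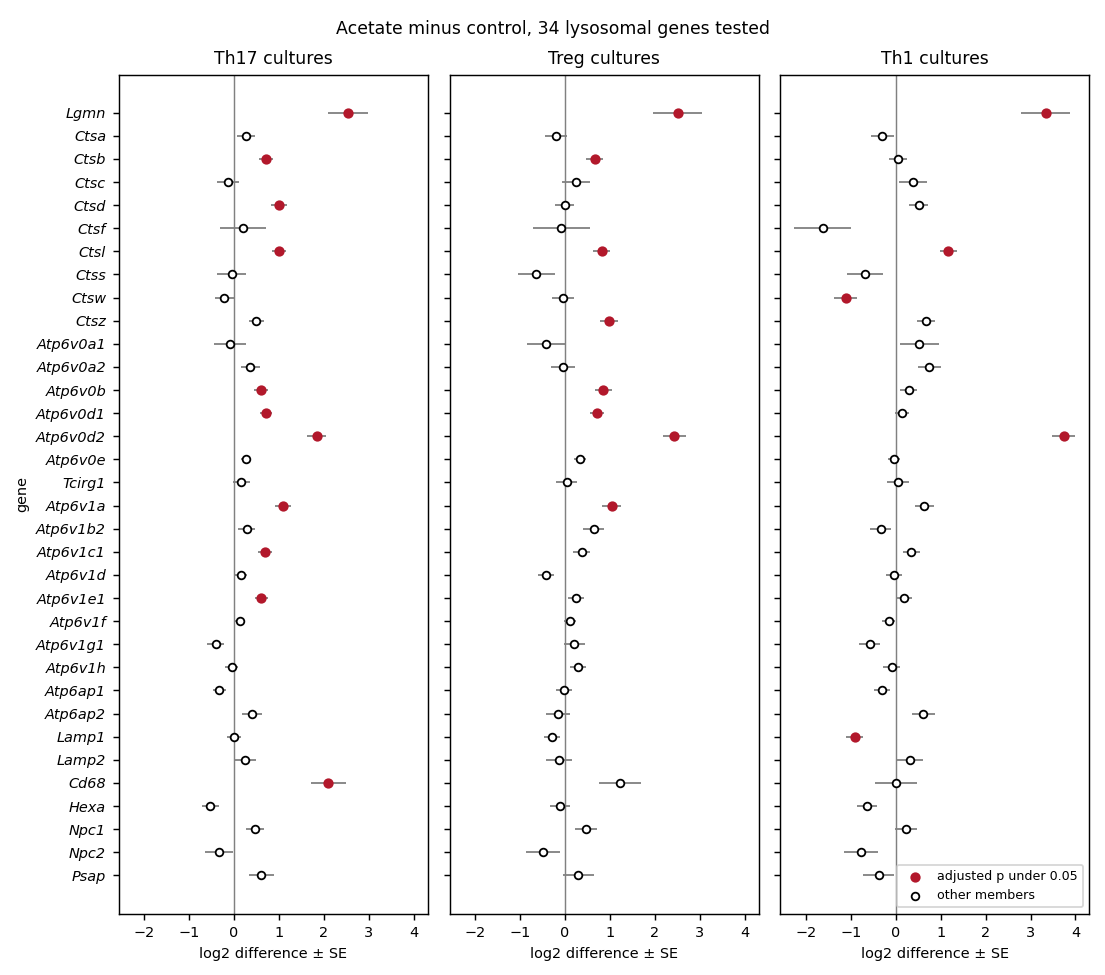
Log2 difference ± SE, acetate minus control, of the 34 genes tested in Th17, Treg and Th1 cultures. Filled red points passed an adjusted p of 0.05 (11 genes for Th17, 8 for Treg and 5 for Th1 cultures), and open points did not; Lgmn and Cd68 lie farthest to the right in Th17 cultures, and Lgmn and Atp6v0d2 in Treg and Th1 cultures.

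Among the proteases, Lgmn had the largest acetate difference in each subset. It encodes legumain, a cysteine protease that cuts after asparagine and also activates cathepsins. Its normalised signal was 158, 171 and 117 in the Th17 acetate arrays, against 29.7, 23.7 and 16.6 in the Th17 control arrays. In Treg cultures it was 86.0 and 149 with acetate and 14.04 and 21.4 without. Th1 cultures had 115 and 69.1 with acetate, against 1.38 and 16.0 without. Every acetate array lay above every control array of any subset, and the Th1 control array at 1.38 was under the level of the filter. The differences were 2.54 ± 0.44 in Th17 (adjusted p = 0.00201), 2.51 ± 0.54 in Treg (adjusted p = 0.00969) and 3.34 ± 0.54 in Th1 cultures (adjusted p = 0.00888). In Treg cultures the call of Lgmn was lost without Treg acetate array 2 or Treg control array 1 (adjusted p = 0.0836 to 0.0854).

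Ctsl, the gene of the cysteine protease cathepsin L, had 418, 433 and 383 in the Th17 acetate arrays, against 207, 198 and 204 in their controls. Its signal was 312 and 328 in Treg acetate arrays, against 183 and 178 in Treg control arrays. In Th1 cultures it was 245 and 167 with acetate and 86.3 and 90.7 without. Acetate and control arrays did not overlap within any subset, and the control level itself was lower in Th1 than in the other subsets. The difference was 1.00 ± 0.15 in Th17 cultures (adjusted p = 0.000841), 0.82 ± 0.18 in Treg cultures (adjusted p = 0.0121) and 1.17 ± 0.18 in Th1 cultures (adjusted p = 0.00824). A second Ctsl probe set had a mean signal of 2.93, and with the average of both probe sets no Ctsl difference was called. In Treg cultures the Ctsl call also rested on all 4 arrays, since leaving out any of them ended it.

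Ctsb encodes cathepsin B, which has both endopeptidase and carboxypeptidase activity. Its signal was 1669, 2320 and 1742 in Th17 acetate arrays, against 1037, 1186 and 1241 in Th17 control arrays. Treg cultures had 1696 and 1851 with acetate, against 1135 and 1105 without. In Th1 cultures the values overlapped, with 1758 and 1232 in acetate arrays and 1292 and 1568 in control arrays. The differences were 0.71 ± 0.16 in Th17 (adjusted p = 0.00794), 0.66 ± 0.20 in Treg (adjusted p = 0.0437) and 0.05 ± 0.20 in Th1 cultures (adjusted p = 0.919). The Treg call of Ctsb was lost under 11 of the alternative settings. That the 3 differences differ was not shown (limma F test, adjusted p = 0.337). A second Ctsb probe set of fair signal (mean 568) gave a difference of 0.92 for Th17, 0.97 for Treg and 0.25 for Th1 cultures.

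Ctsd, the aspartic protease cathepsin D, showed its acetate difference where its control level was lowest. Its signal was 1086, 1384 and 1082 in Th17 acetate arrays, against 595, 553 and 622 in Th17 control arrays. In Treg cultures it was 1161 and 1530 with acetate and 1394 and 1282 without. Th1 cultures had 1671 and 2240 with acetate, against 1111 and 1657 without. The Th17 groups were apart by 0.99 ± 0.18 (adjusted p = 0.00214), the Treg groups overlapped at -0.00 ± 0.22 (adjusted p = 0.993), and the Th1 difference of 0.51 ± 0.22 did not pass (adjusted p = 0.187). The Th17 acetate and Treg control arrays overlapped in signal. The F test did not show unequal differences for Ctsd (adjusted p = 0.194).

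Ctsz, the carboxypeptidase cathepsin Z, had 911 and 682 in Treg acetate arrays, against 400.5 and 391 in Treg control arrays. Th17 cultures had 714, 811 and 923 with acetate and 621, 590 and 521 without. In Th1 cultures the values were 811 and 795 with acetate, against 606 and 416 without. Acetate and control arrays were apart in each subset. The difference was called in Treg cultures at 0.99 ± 0.20 (adjusted p = 0.00724), while 0.49 ± 0.16 in Th17 (adjusted p = 0.0509) and 0.67 ± 0.20 in Th1 cultures (adjusted p = 0.0776) were not. The Treg call of Ctsz was lost on the signals as deposited, without Treg acetate array 1 and without either Treg control array (adjusted p = 0.0504 to 0.127).

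Ctsw, a cathepsin known from cytotoxic lymphocytes, went the other way in Th1 cultures. Its signal was 1068 and 566 in Th1 acetate arrays, against 1559 and 1836 in Th1 control arrays, a difference of -1.12 ± 0.25 (adjusted p = 0.0313). The call was lost under 7 alternative settings, among them the signals as deposited. Ctsw ranged from 1467 to 2153 over the Th17 arrays and overlapped between acetate and control arrays there.

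The remaining proteases were called in no acetate comparison. Ctss, which trims the invariant chain in antigen-presenting cells, had 714.5 and 194 in Th1 acetate arrays, against 600.1 and 614 in Th1 control arrays. The 2 Th1 acetate arrays thus fell on either side of the controls, at a difference of -0.70. Treg arrays of Ctss were apart and lower with acetate, at 648 to 657 against 925 to 1116 in controls (-0.64). Its Th17 arrays overlapped, with a difference of -0.05. Ctsa (cathepsin A, a serine carboxypeptidase) and Ctsc (a dipeptidyl peptidase that activates granule proteases) differed by -0.30 to 0.38 in the 3 subsets. Ctsf had the widest range of these, from 0.888 in Th1 acetate array 2 to 107 in Th17 acetate array 2, with SEs of 0.52 to 0.64. The untested Ctsh and Ctsk ranged from 0.869 to 18.3 and from 0.595 to 9.21.

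**Figure D3:**
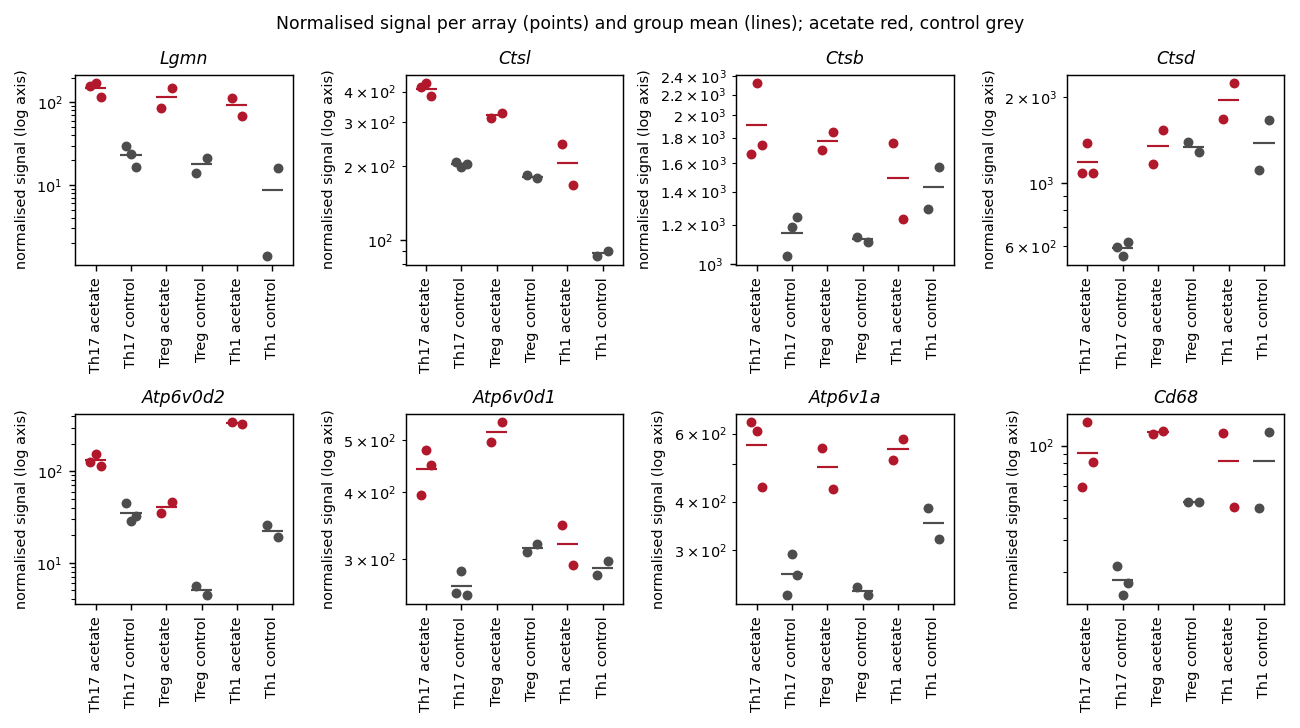
Normalised signal of 8 genes on each array (points, log axis) with the group mean (line), acetate in red left of its control in grey for each subset. Lgmn, Ctsl, Atp6v0d2 and Atp6v1a are apart in all 3 subsets, Ctsb, Atp6v0d1 and Cd68 overlap in Th1 cultures, and Ctsd overlaps in Treg cultures.

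In the V0 sector, Atp6v0d2 had the lowest p-value of the list. It is an isoform of the d subunit that links V0 to V1 and is best known from osteoclasts, macrophages and dendritic cells. In Th1 cultures its signal was 341 and 324 with acetate, against 25.7 and 19.0 without. Th17 cultures had 127, 156 and 113 with acetate and 44.8, 28.3 and 32.1 without. Treg cultures had 35.4 and 45.9 with acetate, against 5.601 and 4.43 without. The Treg acetate arrays overlapped the Th17 control arrays, and the Treg control arrays were under the level of the filter. The differences were 1.84 ± 0.21 in Th17 (adjusted p = 0.000185), 2.44 ± 0.26 in Treg (adjusted p = 0.000353) and 3.74 ± 0.26 in Th1 cultures (adjusted p = 2.59e-05), and all 3 calls held under every alternative setting. The second Atp6v0d2 probe set gave 1.57, 2.56 and 3.79. The 3 differences differed from each other (limma F test, adjusted p = 0.0452), a call that held under 5 of 22 alternative settings (adjusted p up to 0.133).

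Atp6v0d1, the widely expressed d isoform, moved less. Its signal was 395, 480 and 451 in Th17 acetate arrays, against 259, 285 and 257 in Th17 control arrays, a difference of 0.72 ± 0.13 (adjusted p = 0.00246). In Treg cultures it was 496 and 540.3 with acetate, against 309 and 321 without (0.71 ± 0.16, adjusted p = 0.0120). Th1 cultures overlapped, with 348 and 293 in acetate arrays and 280 and 298 in control arrays. The Treg call was lost when any of the 4 Treg arrays was left out (adjusted p = 0.0672 to 0.0871).

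Atp6v0b, a proteolipid of the membrane ring, had 784, 1080 and 802 in Th17 acetate arrays, against 506, 585 and 647 in Th17 control arrays (0.61 ± 0.16, adjusted p = 0.0166). Treg cultures had 1044 and 830.3 with acetate, against 473 and 556 without (0.86 ± 0.19, adjusted p = 0.0121). The Th17 call of Atp6v0b was lost on the signals as deposited, without Th17 acetate array 2 and without Th17 control array 1 (adjusted p = 0.0749 to 0.355). Its Treg call was lost on the signals as deposited and without Treg acetate array 1 or Treg control array 1 (adjusted p = 0.110 to 0.141). In Th1 cultures the acetate arrays, at 1042 and 911, lay above the control arrays at 808 and 788, a difference of 0.29 ± 0.19 that was not called. The other V0 subunits, Atp6v0a1, Atp6v0a2, Atp6v0e and Tcirg1 (the a3 isoform), differed by -0.41 to 0.75 with no call in any subset. That range holds for the probe sets used. On the others, with mean signals of 4.16 to 9.57 for Atp6v0a1, that gene differed by -0.66 to 2.12. Those of Atp6v0a2, with mean signals of 10.1 and 50.8, gave -0.34 to 1.04. Atp6v0e was apart in both Th17 cultures (0.26 ± 0.11) and Treg cultures (0.33 ± 0.14) without passing.

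In the V1 sector, Atp6v1a, the catalytic A subunit that binds ATP, had 641, 609 and 436 in Th17 acetate arrays, against 230 to 294 in Th17 control arrays. Its signal was 551 and 431 in Treg acetate arrays, against 240.5 and 229 in Treg control arrays. In Th1 cultures it was 513 and 582 with acetate and 385 and 321 without. The groups did not overlap in any subset. The differences were 1.09 ± 0.17 in Th17 (adjusted p = 0.00121), 1.04 ± 0.21 in Treg (adjusted p = 0.00715) and 0.63 ± 0.21 in Th1 cultures (adjusted p = 0.106, not called). The Treg call of Atp6v1a was lost on the signals as deposited and without Treg acetate array 1 or Treg control array 2 (adjusted p = 0.0589 to 0.0940).

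Atp6v1c1, a subunit of the stalk region that takes part in assembly, was higher with acetate on all Th17 arrays: 627, 540.3 and 476, against 377, 292 and 348 in controls (0.69 ± 0.15, adjusted p = 0.00688). Atp6v1e1, of the peripheral stalk, had 827, 1048 and 910 in Th17 acetate arrays, against 571, 614 and 636 in Th17 control arrays (0.60 ± 0.14, adjusted p = 0.00958). Their differences in Treg and Th1 cultures, between 0.19 and 0.37, were not called. Both genes lost their Th17 call on the signals as deposited. Atp6v1e1 also lost it with the mean of its probe sets (limma, adjusted p = 0.141 to 0.361 over these settings). Another Atp6v1e1 probe set, with a mean signal of 42.3, gave 0.99 for Th17, 1.11 for Treg and -0.74 for Th1 cultures. The other 5 V1 subunits tested, Atp6v1b2, Atp6v1d, Atp6v1f, Atp6v1g1 and Atp6v1h, passed in no subset. Atp6v1f was the steadiest gene of the list, with group means within 0.18 on the log2 scale and signals from 995 to 1245 over all arrays. The accessory proteins Atp6ap1 and Atp6ap2 (the prorenin receptor) were not called.

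Among the membrane glycoproteins, Cd68, a heavily glycosylated lysosomal protein used as a macrophage marker, had 59.2, 134 and 81.1 in Th17 acetate arrays, against 21.6, 14.9 and 17.6 in Th17 control arrays. The Th17 difference was 2.10 ± 0.39 (adjusted p = 0.00257). In Treg cultures it was 116 and 121 with acetate, against 48.7 and 49.0 without, apart but not called (1.23 ± 0.47, adjusted p = 0.110). In Th1 cultures the signals were 118 and 45.8 with acetate and 45.3 and 119 without, so that both groups spanned the same range. Cd68 had a single probe set.

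Lamp1, among the most abundant proteins of the lysosomal membrane, had 416 and 276 in Th1 acetate arrays, against 646 and 643 in Th1 control arrays, a difference of -0.92 ± 0.19 (adjusted p = 0.0232). It lost this call on the signals as deposited, without Th1 acetate array 2 and without Th1 control array 2. In Th17 cultures Lamp1 overlapped at -0.01 ± 0.15. Lamp2, its relative in the lysosomal membrane, was called in no subset.

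Of the lipid-handling proteins, none was called in a single subset. Hexa, the alpha subunit of beta-hexosaminidase, had 120, 138 and 157 in Th17 acetate arrays, against 200, 184 and 215 in Th17 control arrays, apart at -0.53 ± 0.19 (adjusted p = 0.0606). Its fall in the mean of the 3 differences was -0.43 ± 0.12 (adjusted p = 0.0177). Npc2, which binds cholesterol in the lysosome, was lower with acetate in each subset by 0.33 to 0.77 on the log2 scale without a call. Psap, the precursor of the saposins, differed by -0.38 to 0.60.

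For the 34 genes, the spread between arrays was widest in the acetate groups of Th1 and Th17 cultures. In Th1 acetate arrays replicate 2 was below replicate 1 for 25 of the 34 genes, against 6 in Th17 acetate and 9 in Treg acetate arrays, where most genes went the other way. Among the 25 were Ctss (714.5 and 194 in replicates 1 and 2), Npc2 (5181 and 2149) and Cd68 (118 and 45.8). The median SD of the 34 genes on the log2 scale was 0.30 in the Th1 acetate group and 0.07 to 0.24 in the other groups. Over all genes the Th1 acetate and Th17 acetate groups had the same median SD of 0.28. Without Th1 acetate array 1, the F test called 5 of the 34 genes, Ctss, Ctsw, Lamp1, Cd68 and Atp6v0d2; without Th1 acetate array 2 it called 0, with 6 at an unadjusted p under 0.05. The part of these arrays in the Th1 results was tested only by leaving each out.

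Other genes of the pathway were taken from lists chosen with earlier results of these data known, and their counts are to be read against the shares of all genes given above (11.7% higher and 8.66% lower in Th17 cultures). Of 32 other soluble hydrolases and their activators, 8 rose and 1 fell in Th17 cultures, with a median difference of 0.27 against 0.01 over all genes. Gla, the lysosomal alpha-galactosidase, averaged 418 in Th17 acetate arrays and 72.5 in Th17 control arrays (2.34 ± 0.34, adjusted p = 0.000748). Ppt1, which removes palmitate from proteins, rose by 1.07 ± 0.24, whereas Ctso, a cathepsin, fell by 0.86 on the log2 scale. In Treg cultures 3 of the 32 rose (Gla, Galc and Glb1) and 1 fell (Ctso), and in Th1 cultures 0 were called, with 4 at an unadjusted p under 0.05 in limma.

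Of 17 other lysosomal membrane proteins, 3 rose in Th17 cultures, with a list median of -0.12: the peptide transporter Abcb9 (1.91 ± 0.32, adjusted p = 0.00163), Laptm4b and Tmem192. In Treg cultures 1 of the 17 rose, Laptm4b, and 1 fell, Sidt2. For the mean of the 3 differences 3 rose and 3 fell. Among 7 further pump subunits and assembly factors, Tmem199, known from V-ATPase assembly, rose in Th17 (0.70 ± 0.18) and in Th1 cultures (1.06 ± 0.22). Of 17 sorting genes, Gga2, Gnptg and Igf2r rose in Th17 cultures and M6pr, a mannose 6-phosphate receptor, fell. In Treg cultures Gga2 and Gnptg rose and Ap3b1 fell.

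Of 8 protease inhibitors of the cystatin and serpin families tested, 3 rose in Th17 cultures (Cstb, Serpinb6a and Serpinb6b). Of the same 8, 1 fell, Cst7, the inhibitor cystatin F (-0.79 ± 0.23). Serpinb6b, with a mean signal of 3311 in Th1 acetate arrays and 827 in Th1 control arrays, also rose there (2.05 ± 0.27, adjusted p = 0.00319). Of 17 regulators and nutrient sensors, 1 rose in Th17 cultures (Lamtor3) and 1 in Treg cultures (Rragd). For the mean of the 3 differences 1 of the 17 rose, Lamtor3 (background 17.6%). In that mean 2 fell, Zkscan3 (-0.59 ± 0.15) and Flcn (-0.52 ± 0.13), beside a background of 14.1%. In Th17 cultures Tfeb, Tfe3 and Mitf, the transcription factors of this system, differed by 0.32 ± 0.26, 0.32 ± 0.25 and 0.54 ± 0.26 without a call (adjusted p = 0.416, 0.391 and 0.161). Of 18 autophagy genes 2 rose in Th17 cultures, Map1lc3a and Gabarapl2, and 0 were called in Treg or Th1 cultures, where 2 and 4 had an unadjusted p under 0.05 in limma. For the mean of the 3 differences 0 of the 18 rose and 4 fell, Atg16l1, Sqstm1, Ulk1 and Wipi2.

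Between untreated subsets few of the 34 genes differed, and these comparisons share their control arrays with the acetate comparisons and with each other. Untreated Th17 against untreated Th1 cultures gave 2 higher genes, Ctsl and Ctsc (background 2.99%), and 2 lower, Ctsd and Cd68 (background 3.62%). Ctsl was 207, 198 and 204 in Th17 control arrays, against 86.3 and 90.7 in Th1 control arrays (1.17 ± 0.17, adjusted p = 0.00149). Ctsd was 595, 553 and 622 in Th17 control arrays, against 1111 and 1657 in Th1 control arrays (-1.20 ± 0.20, adjusted p = 0.00328), a call lost on the signals as deposited and without Th1 control array 2 (adjusted p = 0.0589 to 0.137). The Ctsc call was lost under 13 alternative settings. The count of 4 was 2 without Th17 control array 2, without Th17 control array 3 or without Th1 control array 2. On the signals as deposited it was 15, of which 14 were higher, with the median of all genes at 0.62.

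Untreated Treg against untreated Th1 cultures gave 3 higher genes, Ctsl, Ctsa and Atp6v1d (background 2.85%), and 1 lower, Atp6v0d2 (background 2.14%). Atp6v0d2 was 5.601 and 4.43 in Treg control arrays, against 25.7 and 19.0 in Th1 control arrays (-1.65 ± 0.26, adjusted p = 0.00346). The Ctsa call was lost under 16 alternative settings (adjusted p up to 0.262). The count of 4 was 1 without either Treg control array and 2 without Th1 control array 1. On the signals as deposited it was 0, with 8 at an unadjusted p under 0.05 in limma.

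Untreated Th17 against untreated Treg cultures gave 2 higher genes, Atp6v0d2 and Atp6ap1 (background 5.31%), and 2 lower, Ctsd and Atp6v1d (background 6.01%). Atp6v0d2 was 44.8, 28.3 and 32.1 in Th17 control arrays, against 5.601 and 4.43 in Treg control arrays (2.23 ± 0.24, adjusted p = 9.33e-05), and this call held under every alternative setting. Ctsd was 595, 553 and 622 in Th17 control arrays, against 1394 and 1282 in Treg control arrays (-1.18 ± 0.20, adjusted p = 0.00184), a call lost on the signals as deposited (adjusted p = 0.142). The Atp6ap1 call was lost under 13 alternative settings. On the signals as deposited 6 genes were higher and 0 lower, with the median of all genes at 0.41: Atp6v1d was lost as well, and Ctsc, Ctsz, Atp6v0e and Atp6v1g1 were called. Leaving out any one Th17 or Treg control array gave a count of 2.

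**Figure D4:**
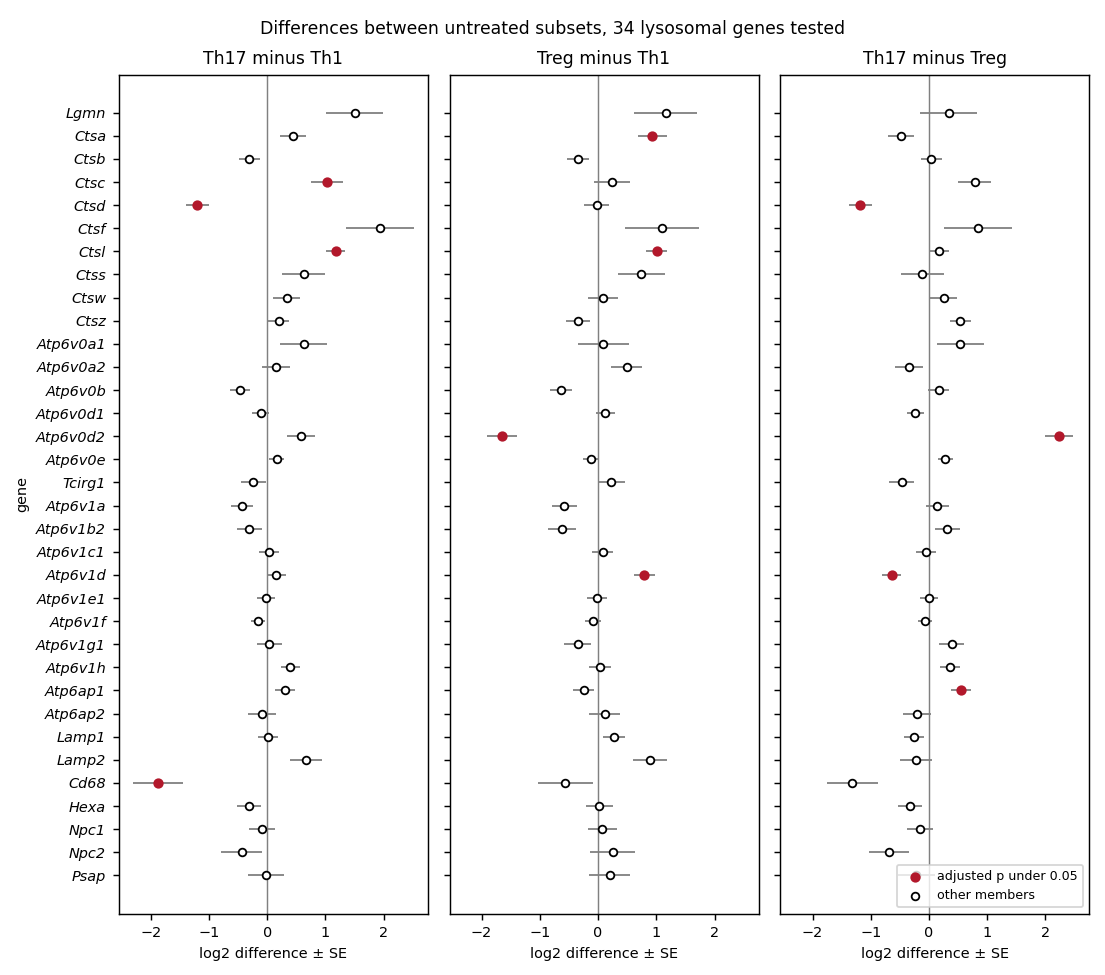
Log2 difference ± SE of the 34 genes between untreated subsets: Th17 minus Th1, Treg minus Th1 and Th17 minus Treg. Filled red points passed an adjusted p of 0.05, 4 genes in each panel; Atp6v0d2 is lowest in the Treg control arrays and Ctsd in the Th17 control arrays.

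The labelled subsets carried their lineage genes: Il17a averaged 652 in Th17 control arrays, Foxp3 332 in Treg control arrays and Tbx21 315 in Th1 control arrays. These genes also moved with acetate. Il17a averaged 4335 in Th17 acetate arrays (a rise of 2.69 ± 0.30). Foxp3 averaged 59.1 in Treg acetate arrays and 14.2 in Th17 acetate arrays, against 332 in Treg control and 82.8 in Th17 control arrays, and fell in both (-2.43 ± 0.37 and -2.34 ± 0.30). Ifng averaged 9986 in Th1 acetate arrays and 1937 in Th1 control arrays, a difference that was not called. In Th17 cultures Tbx21 rose (1.42 ± 0.44) and Gata3 fell (-1.30 ± 0.36). Il17a also rose in Treg cultures (1.25 ± 0.36), at mean signals of 13.2 with acetate and 4.39 without. Trimmed mean signals of the deposited arrays ranged from 53.2 to 116. Because lysosomal genes are abundant in phagocytes, markers of other cells were summed per array. Macrophage and monocyte markers (15 genes, 12 under the filter) summed to 86.4 to 160 in Th17 acetate arrays, against 130 to 134 in Th17 control arrays. They summed to 154 to 188 in Treg acetate arrays, against 199 to 205 in Treg control arrays, and to 201 to 307 in Th1 acetate arrays, against 109 to 111 in Th1 control arrays. C1qa was at or under 1.34 and Lyz2 at or under 13.3 on every array. In Th1 cultures, however, Ccr2 averaged 107 with acetate and 22.3 without, Mrc1 22.7 and 4.24, and Csf1r 44.0 and 24.6. Fcgr1 averaged 6.64 with acetate and 10.3 without there, and Lyz2, Mpeg1 and C1qa were also lower with acetate. Mrc1 was under the filter by its mean. Of the 3 markers tested, Csf1r, Adgre1 and Ccr2, 0 were called in Th1 cultures, with 1 at an unadjusted p under 0.05 in limma. The 5 osteoclast markers, all under the filter by their means over the 14 arrays, summed to 41.1 to 72.5 in Th1 acetate arrays, against 19.8 to 32.6 in Th1 control arrays. Their sums were 25.3 to 33.2 in Treg acetate arrays, against 14.6 to 19.6 in Treg control arrays, and overlapped in Th17 cultures. In Th1 cultures Ocstamp averaged 27.4 with acetate and 4.72 without, and Mmp9 19.9 and 14.5, while Calcr averaged 0.862 and 1.57. Dendritic cell markers (8 genes, 6 under the filter) summed higher with acetate in each subset. The sums were 609.9 to 913 in Th17 acetate arrays, against 311 to 416 in Th17 control arrays, 478 to 856 in Treg acetate arrays, against 90.8 to 123 in Treg control arrays, and 1209 to 1239 in Th1 acetate arrays, against 882 to 1197 in Th1 control arrays. Batf3, a transcription factor also found in activated T cells, made up most of these sums and rose in Th17 (1.02 ± 0.24) and Treg cultures (3.04 ± 0.30). Itgax, the other one tested, was called in no subset. It averaged 5.29 with acetate and 9.54 without in Th17, 13.1 and 20.0 in Treg, and 16.6 and 16.1 in Th1 cultures.

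T cell markers (9 genes) summed to 11085 to 15488 in Th17 acetate arrays, against 16833 to 18232 in Th17 control arrays. In Treg cultures the sums were 14527 to 15282 with acetate and 19051 to 21591 without, and in Th1 cultures 13079 to 14726 with acetate and 18495 to 18567 without. For the mean of the 3 differences 6 of these 9 fell and 1 rose. MHC class II genes, markers of antigen-presenting cells, rose in Th17 cultures for 5 of 5 tested, with Cd74 averaging 1012 in Th17 acetate arrays and 331 in Th17 control arrays. In Treg cultures 2 of 5 rose, and in Th1 cultures 0, with 1 at an unadjusted p under 0.05 in limma. NK cell markers (4 genes) summed to 1288 to 1676 in Th1 acetate arrays, against 454 to 471 in Th1 control arrays, and overlapped between acetate and control arrays in Th17 and Treg cultures. Of these, Klre1 rose in all 3 subsets (1.15 ± 0.30 in Th17, 1.92 ± 0.36 in Treg, 2.14 ± 0.36 in Th1 cultures) and Klrk1 rose in Th1 cultures (2.66 ± 0.47). Klrd1, called in no subset, averaged 630 with acetate and 1045 without in Th17 cultures. Its means were 785 and 1421 in Treg cultures, and 402 and 288 in Th1 cultures. Ncr1 was at or under 9.01 on every array. B cell markers (6 genes) summed lower with acetate in each subset, carried mostly by Ighm, and Ms4a1 was also at or under 9.01 throughout. CD8 T cell markers (2 genes) summed to 180 to 332 in Th17 acetate arrays, against 51.6 to 179 in Th17 control arrays. They were also apart in Treg cultures (260 to 268 against 196 to 217) and overlapped in Th1 cultures. Cd8b1 rose in Th17 cultures (1.78 ± 0.29) and Cd8a in none. Mast cell and basophil markers summed lower with acetate in Th17 cultures and overlapped in the others. Neutrophil markers overlapped in every subset. The part of these marker changes in the lysosomal results was not tested.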

How the data were processed

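Total RNA of cultured CD4 T cells was hybridised to Affymetrix arrays of the Mouse 430 2.0 type as far as the labels of Treg and Th1 samples say. For every array the authors deposited an unlogged signal intensity for each probe set, which the submitters' processing notes credit to MAS5, with no version or target value stated there. All 14 arrays and 45101 probe sets were read, and no column was left out. Detection calls were not used, and whether a probe set exceeded background was not tested.

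Signals were transformed as log2(signal + 3) and quantile normalized. Of the probe sets, 34945 carried 1 gene symbol in the platform annotation; 932 with several symbols, 9211 with none and the 64 array controls were left out of gene tests. Where a gene had several probe sets, the one of highest mean stood for it; this concerned 22 of the listed genes. Genes whose mean lay below the 40th percentile (log2 of 3.60) were not tested. On this scale a log2 difference is smaller than the true change where signals are low. Normalised signal is 2 to the power of the normalized value, minus 3. The limma package, version 3.58.1 under R 4.3.3, fitted a mean for each of the 6 groups to all arrays without covariates, leaving 8 residual degrees of freedom, followed by eBayes with a trend; the fit was checked on simulated data. Its p-values were adjusted by Benjamini and Hochberg's method across the tested genes and called at 0.05. Where an array was left out of a pair, the lone array was assumed to vary like the other groups.

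The listed genes, pathway lists, marker lists and tests were chosen with earlier results of these data known. Values per array are given for genes called in an acetate comparison or with the largest differences, other listed genes by range or count. Alternatives covered array scaling, pseudocount, filter, probe set choice, a replicate block and each array left out in turn. Promoter sequences are RefSeq's, matched by symbol for 28 of 38 genes. No batch is labelled, and one that matched a group cannot be told apart from that group.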

Additional observations from a re-analysis of the deposited data

Results flagged for a closer look

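One result stood out by a test of the difference between subsets. The acetate difference of Atp6v0d2, the d2 subunit of the vacuolar proton pump, was 3.74 ± 0.26 in Th1, 2.44 ± 0.26 in Treg and 1.84 ± 0.21 in Th17 cultures on the log2 scale, and limma's F test found these unequal (adjusted p = 0.0452). Acetate arrays lay above control arrays in each subset. The control level was also lower in Treg than in the other subsets, with 5.601 and 4.43 in Treg, 25.7 and 19.0 in Th1 and 44.8, 28.3 and 32.1 in Th17 control arrays. The test passed under 5 of 22 alternative settings, with adjusted p-values up to 0.133. What lies behind the difference between subsets was not tested.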

How the results depend on the processing

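Of 53 calls of single genes over all comparisons, 17 held under every alternative setting, among them Atp6v0d2 in all 3 subsets and Lgmn in Th17 and Th1 cultures, and 36 were lost under at least 1; 0 changed direction. The signals as deposited lost 27 of them; on these, the acetate calls by limma numbered 5 (Th17), 2 (Treg) and 3 (Th1), with 15 calls for untreated Th17 against Th1 and 0 for untreated Treg against Th1 cultures (8 at an unadjusted p under 0.05). With the mean of a gene's probe sets, 2 were called for untreated Th17 against Th1 and 2 for untreated Treg against Th1 cultures. The F test called 0 with that setting, with arrays scaled to 1 trimmed mean, with a pseudocount of 1 or without a filter (8 at an unadjusted p under 0.05 each). The causes were not tested.

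Leaving out each array in turn gave 10 to 14 acetate calls for Th17, 2 to 9 for Treg and 3 to 7 for Th1 cultures, and 13 to 18 for the mean. It gave 2 to 5 for untreated Th17 against Th1, 1 to 5 for Treg against Th1, 2 to 6 for Th17 against Treg cultures, and 0 to 5 in the F test. Deviations of same-numbered acetate and control arrays correlated at 0.15, 0.16 and -0.06 for Th17, 0.06 for Treg and -0.16 for Th1 cultures. Differently numbered Th17 arrays correlated at -0.19 to 0.05. In groups of 2 arrays the deviations mirror each other, so only the sign differs between pairings. These values do not settle whether the numbers pair the arrays. With the replicate block, 2 genes were called for untreated Th17 against Th1 cultures and 0 in the F test (6 at an unadjusted p under 0.05); the acetate counts were 11 (Th17), 7 (Treg) and 4 (Th1). With the Th1 numbers crossed, a pairing chosen after seeing the data, the F test called 0 (11 at an unadjusted p under 0.05). Whether low signals, such as those of Lgmn and Atp6v0d2 in some control arrays, exceed background was not tested.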
